A study of Gallus gallus with 24 samples.

Results

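Mitochondrial ribosomal protein genes encode the proteins of the mitoribosome, the ribosome inside mitochondria. They were taken by symbol, as every gene whose annotated symbol starts with MRPL or MRPS followed by a digit. This gave 37 of the 6385 genes with a symbol, or 37 of 14855 features tested, since unnamed probes were tested one by one. There were 20 MRPL and 17 MRPS symbols. By the subunit known from the mammalian mitoribosome, 21 belong to the large subunit, 15 to the small subunit and 1 to neither. The gene placed by name in the small subunit but found in the large subunit is MRPS18A. The gene that belongs to neither is MRPS36, which has since been described as a component of the 2-oxoglutarate dehydrogenase complex. Of the 36 ribosomal members, 22 have a homologue among bacterial ribosomal proteins. The other 14 have none there and are called mitochondria-specific here. All 37 symbols were found under the same gene identifier in the RefSeq annotation, where MRPL14 and MRPS18A are close neighbours with 2 protein-coding genes between them.

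The mitoribosome makes the few subunits of the respiratory chain and of ATP synthase that are still encoded by mitochondrial DNA. Its RNAs come from the mitochondrial genome, whereas all of its proteins are encoded in the nucleus, made on cytosolic ribosomes and imported. Large subunit proteins (MRPL) surround the site where peptide bonds form, and small subunit proteins (MRPS) hold the messenger RNA. Part of them descend from bacterial ribosomal proteins and the rest are found only in mitochondrial ribosomes. In liver, mitochondria carry out fatty acid oxidation and supply the carbon for fat synthesis.

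Hepatic transcripts of chickens of the fat line (FL) and of the lean line (LL), 2 lines bred apart for high and low abdominal fat over 7 generations, were hybridised against each other on 24 cDNA arrays with 2 dyes. Every array set liver RNA of FL birds against liver RNA of LL birds of the same age, all raised under a standard broiler regimen, and 4 arrays were made at each of 6 ages, every other wk from 1 to 11 wk. On replicates 2 and 4 of each age FL was in channel 2 and LL in channel 1, and on replicates 1 and 3 FL was in channel 1. The sources used here do not say whether the replicates were separate birds or pools, so p-values measure only the spread between arrays.

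A log ratio between the channels was the only value of each spot, so no gene has a level here and the genes cannot be ordered by abundance. For the same reason the liver markers could be compared only as ratios, and the tissue label could not be checked by level. How the ratio was directed, its log base and whether dye-swapped columns had been turned are not given in the sources used here. Values are written as log2. A turned value is the deposited ratio with its sign changed where FL was in channel 1. It stands for FL over LL under the assumptions that channel 2 was divided by channel 1 and that no column had been turned before deposit. The common profile is the term of the model that keeps its sign when the dyes are exchanged. It can hold a dye effect or, had the columns been turned before deposit, a difference of FL against LL, and these cannot be told apart. What belongs to a single spot also enters it. Across 455 accessions spotted 2 times, the mean ratios of the paired spots correlated at r = -0.03. The part of single spots in the common profile was not tested.

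The mean deposited ratio of the 37 genes lay between -0.08 and 0.07 on 23 arrays, near the median of all features, which lay between -0.02 and 0.03 there. On 7 wk replicate 1 their mean was 0.32, beside a median of all features of 0.33, and 7 of the 37 genes were below 0, beside 7.82% of all features. Over all features that array correlated with 11 wk replicate 4 at r = 0.80, the highest of all pairs of arrays, although the labels describe different samples. Over the 37 genes their r of 0.87 was exceeded by that of 3 wk replicates 2 and 4 (0.92) and of 3 wk replicate 3 with 5 wk replicate 2 (0.88). The array 1 wk replicate 4 correlated with 3 wk replicate 3 at r = -0.58 over all features and -0.51 over the 37 genes. With 1 wk replicate 2, of the same dye orientation, its r was -0.31 and -0.35, and with 1 wk replicate 3, of the opposite orientation, 0.56 and 0.69. With this array turned the other way there were 0 calls in every turned comparison, and 11 positive and 7 negative calls in the common profile. The share of all features called in that setting is not given here, so these counts are no result about the family. The SD of the 37 genes on an array was 0.14 to 0.22 at 1 wk, 0.20 to 0.32 at 3 wk, 0.15 to 0.21 at 5 wk, 0.24 to 0.40 at 7 wk, and 0.26 to 0.35 at 9 and 11 wk. The arrays of 9 and 11 wk lay above all those of 1 and 5 wk and overlapped with those of 3 and 7 wk. The SD over all features, 0.17 to 0.30 on the 1 wk arrays and 0.26 to 0.32 on the 9 and 11 wk arrays, overlapped between 1 wk and the older ages through 1 wk replicate 4.

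**Figure D1:**
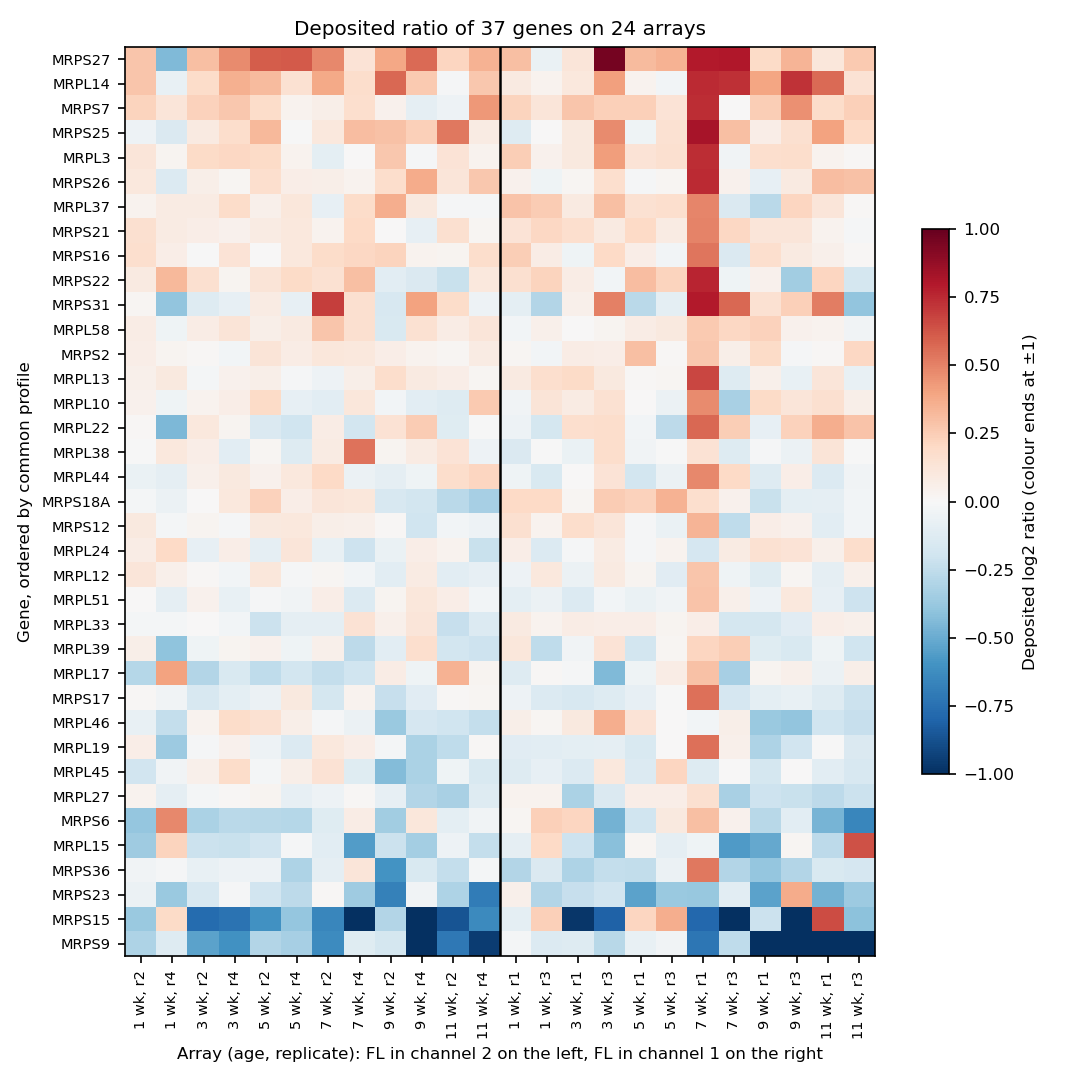
Deposited log2 ratio of each of the 37 genes (rows, ordered by common profile) on each of the 24 arrays (columns, by age and replicate), with FL in channel 2 on the left of the line and FL in channel 1 on the right; red is positive, blue is negative and the colour scale ends at ±1. Through this ordering the upper rows are mostly red and the lower rows mostly blue. MRPS15, near the bottom, was above 0 on 5 of the 24 arrays. On 7 wk replicate 1 most genes are positive, with 7 of 37 below 0.

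The first comparison asked whether mitoribosomal genes differed between FL and LL birds whatever the age. In turned values, which assume that no column had been turned before deposit, no gene of the family passed the test. The reading as deposited is given further below. The mean turned value over the 6 ages was called in 0 of 37 genes (limma, adjusted p under 0.05), against 0% of all features. At an unadjusted p under 0.05 there were 0 of 37 family members and 496 of 14855 features. The values of the family were small, between -0.13 for MRPS15 and 0.03 for MRPL38. Their median was -0.02, beside -0.01 for all features, and 29 of 37 were below 0, beside 10207 of 14855 features. Much of this lean rested on 7 wk replicate 1, whose median over all features of 0.33 becomes negative when turned. Without that array the median of the family was -0.0065, and with every array centred on its median it was -0.0056. Without any other single array it lay between -0.0234 and -0.0137. The count of members below 0 is not given for these settings. The 95% interval of a gene reached a median of 0.07 to either side of its value.

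The family members with the smallest p over all ages were MRPL22, MRPS7 and MRPS21. MRPL22, a homologue of the bacterial protein that lines the exit tunnel, had a mean turned value of -0.08 ± 0.04 (SE, 24 arrays, limma adjusted p = 1). MRPS7, a protein of the small subunit head, had -0.06 ± 0.03 (adjusted p = 1). MRPS21, of the small subunit, had -0.04 ± 0.02 (adjusted p = 1). None of the 3 passed the test.

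At single ages no family member was called in turned values either. At 1, 3, 5 and 11 wk 0 of 37 passed the test, against 0% of all features at each of these ages. At 9 wk 0 of 37 passed, against 0.00673%, which was 1 feature. At 7 wk 0 of 37 passed, against 1.1%, or 163 features. At an unadjusted p under 0.05 there were 0 members at both 1 and 3 wk, beside 69 and 123 of all features, or 0.464% and 0.828%. The model gave all ages 1 common term and 1 spread, so shifts of the deposited ratio between ages entered that spread. Few calls at a single age therefore do not show that the lines were alike. There was 1 member at both 5 and 11 wk, beside 174 and 452 features. The counts were 3 members and 2762 features at 7 wk, and 2 members and 483 features at 9 wk.

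MRPL33, a small protein of the large subunit with a bacterial homologue, was among the 2 members with the smallest p at 3 of the ages. Its turned values on the 4 arrays were -0.07, -0.22, -0.03 and -0.09 at 5 wk, 0.18, 0.05, 0.11 and 0.12 at 9 wk, and -0.07, -0.23, -0.05 and -0.14 at 11 wk. All 4 arrays were negative at 5 and 11 wk and all 4 were positive at 9 wk. The fitted values were -0.10 ± 0.05 at 5 wk, 0.11 ± 0.05 at 9 wk and -0.12 ± 0.05 at 11 wk, each with a limma adjusted p of 1. The difference between the 6 ages in turned values was called in 0 of 37 members, against 0% of all features. The smallest p of the family in that F test were those of MRPL33, MRPL44 and MRPS26, each with an adjusted p of 1.

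At 7 wk the smallest p values belonged to MRPL3 and MRPL22. MRPL3, whose bacterial homologue reaches towards the peptide bond centre, had turned values of -0.74, -0.10, 0.04 and 0.00 on the 4 arrays, so that 1 array, replicate 1, held nearly all of the fitted -0.20 ± 0.09 (limma adjusted p = 0.219). Without replicate 1 the value of MRPL3 was -0.06 with an adjusted p of 0.91. MRPL22 had -0.57, 0.08, -0.24 and -0.19, with a fitted value of -0.23 ± 0.10 (adjusted p = 0.24). Without replicate 1 it was -0.13 with an adjusted p of 0.838. Calls at this age depended on single arrays. Without 7 wk replicate 3, and with replicate 1 kept, 2 members were called at this age, MRPL3 at -0.33 (adjusted p = 0.0182) and MRPL13 at -0.25 (adjusted p = 0.0415). The share of all features called in that setting is not given here, and replicate 1 had a median of 0.33 over all features. With all arrays kept and each centred on its median, MRPL3 had -0.12 (limma adjusted p = 0.516) and MRPL13 had -0.06 (adjusted p = 0.753).

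At 1, 3, 5, 9 and 11 wk the adjusted p was 1 for every member of the family. MRPL44, a protein with a ribonuclease III fold, was positive on all 4 arrays at 11 wk, with turned values of 0.13, 0.18, 0.03 and 0.21. MRPS15 was negative on all 4 arrays at 5 wk, with -0.22, -0.60, -0.36 and -0.39. MRPS7 had -0.25, 0.04, -0.45 and -0.09 at 9 wk, which cross 0. The 1 wk values, MRPL24 at 0.09 ± 0.06 and MRPS18A at -0.12 ± 0.09, and the 3 wk values, MRPL27 at 0.11 ± 0.08 and MRPS31 at -0.19 ± 0.17, were less than 2 standard errors from 0.

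The common profile, in contrast, held called members in both directions. Of 37 members 11 were called positive (limma adjusted p under 0.05), or 29.7%, against 24.2% of all features. Another 6 were called negative, or 16.2%, against 13.5% of all features. Both shares were near the background. The median of the family was 0.03, beside 0.02 for all features. Without 7 wk replicate 1 these medians were 0.0166 and 0.0058. With every array centred on its median they were 0.0072 and -0.0005. Members lay on both sides of 0, between -0.53 and 0.35.

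The most negative members, MRPS9, MRPS15 and MRPS23, were proteins of the small subunit, each measured by 1 spot. MRPS9, a homologue of the bacterial protein whose tail reaches the tRNA in the ribosome, was below 0 on all 24 arrays. Its deposited ratio ran from -1.17 over a median of -0.43 to -0.12 on the 12 arrays with FL in channel 2, and from -1.39 over -0.26 to -0.02 on the 12 arrays with FL in channel 1. The groups of arrays overlapped and both were negative, and the common profile was -0.53 ± 0.09 (adjusted p = 0.000255). MRPS15, the homologue of a bacterial protein that binds the small subunit RNA, was below 0 on 19 of 24 arrays. It ran from -1.15 over -0.64 to 0.19 with FL in channel 2, and from -1.23 over -0.31 to 0.65 with FL in channel 1, with a common profile of -0.48 ± 0.10 (adjusted p = 0.00128). MRPS23, specific to mitochondria, was below 0 on 21 arrays and had -0.26 ± 0.05 (adjusted p = 0.000932). MRPS36, the 2-oxoglutarate dehydrogenase component, was below 0 on 22 arrays and had -0.15 ± 0.05 (adjusted p = 0.0146). This gene too was measured by 1 spot, and its highest array was 7 wk replicate 1.

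In the large subunit 2 members, each measured by 1 spot, were called negative. MRPL15, the lowest of its subunit, was below 0 on 19 arrays and had a common profile of -0.15 ± 0.06 (limma adjusted p = 0.0459), a call that was lost in 17 alternatives, among them the removal of single arrays. MRPL27, whose bacterial homologue lies at the peptide bond centre, had -0.10 ± 0.03 (adjusted p = 0.0227) and was below 0 on 15 arrays.

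The most positive member was MRPS27, a pentatricopeptide repeat protein of the small subunit. Its deposited ratio ran from -0.44 over a median of 0.37 to 0.61 with FL in channel 2, and from -0.06 over 0.31 to 0.95 with FL in channel 1. It was above 0 on 22 of 24 arrays, and its common profile was 0.35 ± 0.06 (limma adjusted p = 0.000191). MRPL14, a protein of the face between the subunits and the highest of the large subunit, ran from -0.08 over 0.27 to 0.58 with FL in channel 2, and from -0.02 over 0.27 to 0.75 with FL in channel 1. Its common profile was 0.28 ± 0.05 (adjusted p = 0.000226). In both genes the medians of the dye orientations were close to each other, and each gene was measured by 1 spot.

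Smaller positive values came from both subunits. In the small subunit MRPS7 had a common profile of 0.20 ± 0.03 and was above 0 on 22 arrays. MRPS25 had 0.19 ± 0.05, MRPS26 had 0.12 ± 0.04 and MRPS21 had 0.11 ± 0.02. MRPS25 and MRPS26 are specific to mitochondria, and MRPS21 has a bacterial homologue. In the large subunit MRPL3 had 0.14 ± 0.03 and MRPL37, specific to mitochondria, had 0.11 ± 0.03. The adjusted p values of these 6 members lay between 0.000286 for MRPS7 and 0.0125 for MRPL37. The other 3 positive calls were MRPS16, MRPS2 and MRPL58, a peptidyl-tRNA hydrolase built into the large subunit that frees stalled ribosomes.

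**Figure D2:**
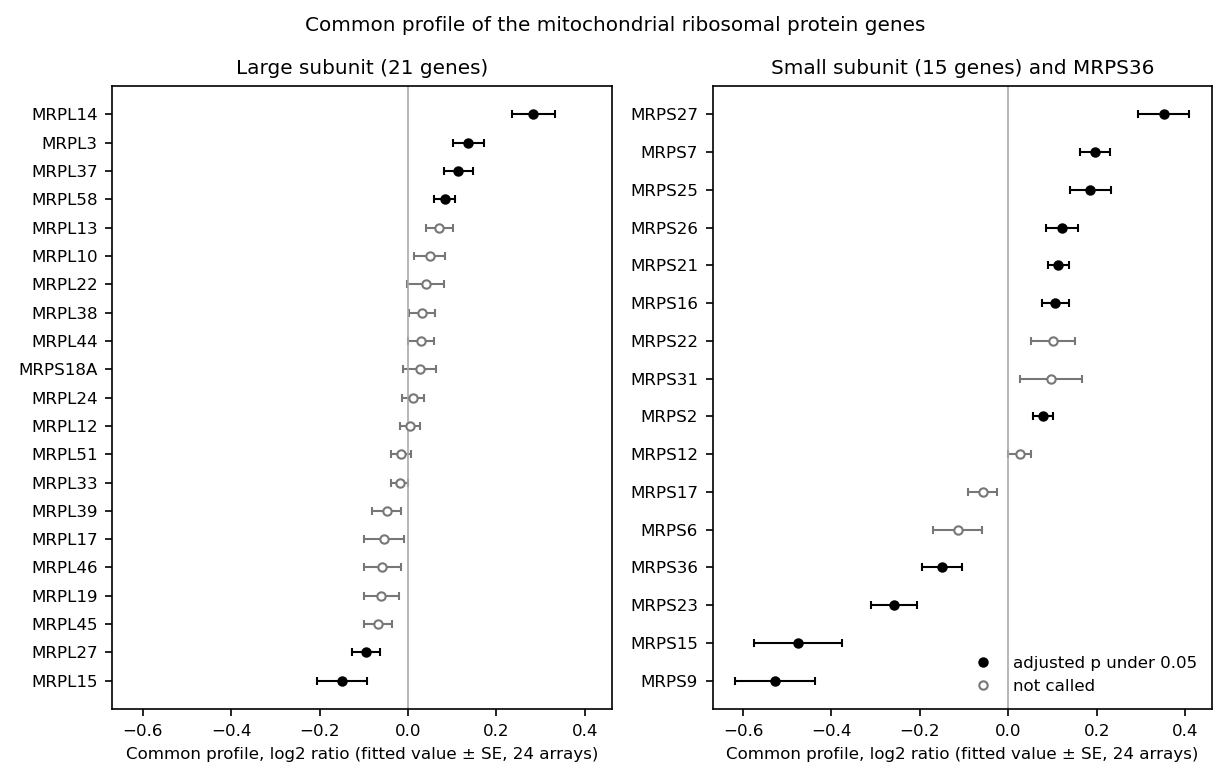
Common profile of each member (x axis, fitted log2 ratio with its SE over 24 arrays), with the 21 large subunit genes on the left and the 15 small subunit genes and MRPS36 on the right; filled points had an adjusted p under 0.05. Large subunit members lie between -0.15 and 0.28, and small subunit members between -0.53 and 0.35.

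Of all features 37.6% were called in the common profile in either direction. Of 21 large subunit members 4 were called positive and 2 negative, or 28.6%, with a median common profile of 0.01. Of 15 small subunit members 7 were called positive and 3 negative, or 66.7%, with a median of 0.10. The SD of the common profile over genes was 0.09 in the large and 0.25 in the small subunit, and 0.15 over all features. By origin, 6 of 22 members with a bacterial homologue were called positive and 4 negative, or 45.5%, and 5 of 14 mitochondria-specific members were called positive and 1 negative, or 42.9%. These counts are a description, and the difference between the subunits was not tested. Members differed in the number of spots that were averaged, and the part of this in these values was not tested.

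Since it is not known whether the columns had been turned, the deposited ratios were also read as they stand, as if positive values meant the same genotype on every array. The mean over ages was then called in 19 of 37 members, or 51.4%, against 41.3% of all features. For the members this mean is the same fitted value as the common profile, in which 17 were called. Only the spread it was tested against differed between the models, so it is not a second result. At single ages, 0 of 37 members were called at 1 wk, against 0.121% of all features, and 2 at 3 wk, against 6.37%. There were 0 calls at 5 wk, against 0.074%. At 7 wk 11 members were called, against 23.6%, at 9 wk 9 members, against 16%, and at 11 wk 6 members, against 10.4%. The ages with the most calls, 7, 9 and 11 wk, were the same in the family and over all features. At 7 wk, where replicate 1 had a median of 0.33 over all features, 3239 features were called positive and 260 negative. In the family 9 members were called positive and 2 negative at that age. Over all features, 1220 were positive and 1160 negative at 9 wk, and 780 and 763 at 11 wk. The part of the shifted array in the 7 wk calls was not tested.

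The deposited ratio differed between ages in 3 of 37 members, MRPL46, MRPS18A and MRPS9 (limma F test, adjusted p under 0.05), or 8.11%, against 4.89% of all features. In each of the 3 genes the mean values at 9 and 11 wk were lower than those at every younger age. Each age had its own 4 arrays, so a change with age cannot be told apart from a difference between sets of arrays. As in the common profile, a dye effect cannot be told apart from a difference of FL against LL in these ratios. In turned values the difference between ages was called in 0 of 37 members, against 0% of all features. MRPL46, a mitochondria-specific protein of the large subunit, had 0.06, -0.07, 0.02 and -0.24 on the 4 arrays at 1 wk. It had 0.10, 0.04, 0.37 and 0.19 at 3 wk and 0.14, 0.15, 0.01 and 0.06 at 5 wk. All 8 arrays of these ages were positive. At 7 wk it had -0.02, -0.01, 0.06 and -0.06. It then had -0.37, -0.37, -0.39 and -0.17 at 9 wk and -0.20, -0.20, -0.23 and -0.24 at 11 wk, so that all 8 arrays of the older birds were negative in both dye orientations. The adjusted p was 0.00321, and the gene was measured by 1 spot.

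MRPS18A was also negative on all arrays of 9 and 11 wk, and unlike MRPL46 was positive on all 4 arrays at 7 wk. Its deposited ratio was 0.20, -0.02, 0.20 and -0.06 at 1 wk and 0.02, 0.00, 0.26 and 0.11 at 3 wk. It was 0.23, 0.23, 0.35 and 0.06 at 5 wk and 0.16, 0.12, 0.04 and 0.12 at 7 wk. All 4 arrays were positive at each of 3, 5 and 7 wk. At 9 wk it was -0.22, -0.16, -0.10 and -0.18, and at 11 wk -0.09, -0.27, -0.03 and -0.33. No array of 9 or 11 wk overlapped with those of 3, 5 or 7 wk, and the adjusted p was 0.00591. These values are means of 2 spots that did not behave alike. One spot was below 0 on only 4 of the 24 arrays and the other on 13, so the negative means were not shared by both spots throughout. The difference between ages was not tested spot by spot. MRPS18A and MRPL46 varied together over the 24 arrays at r = 0.77, a description over arrays that share the ages.

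MRPS9 was negative at every age and more so on most arrays of 9 and 11 wk. Its deposited ratio was -0.02, -0.31, -0.14 and -0.13 at 1 wk, -0.13, -0.54, -0.28 and -0.61 at 3 wk, and -0.08, -0.29, -0.04 and -0.33 at 5 wk. At 7 wk it was -0.72, -0.63, -0.25 and -0.12. At 9 wk it was -1.23, -0.18, -1.10 and -1.17, and at 11 wk -1.32, -0.72, -1.39 and -0.95. The 9 wk replicate 2 value lay among those of the younger birds. The other 7 arrays of the older birds were at -0.72 or lower, and 7 wk replicate 1 and 11 wk replicate 2 both had -0.72. The adjusted p was 0.0148, and 0.0573 when the spread was moderated with a trend and robustly. The spread of all features was also wider on the 9 and 11 wk arrays than on most arrays of 1 and 5 wk. With every array centred and scaled to the same spread, the adjusted p was 0.00542 for MRPL46, 0.00992 for MRPS18A and 0.0285 for MRPS9.

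**Figure D3:**
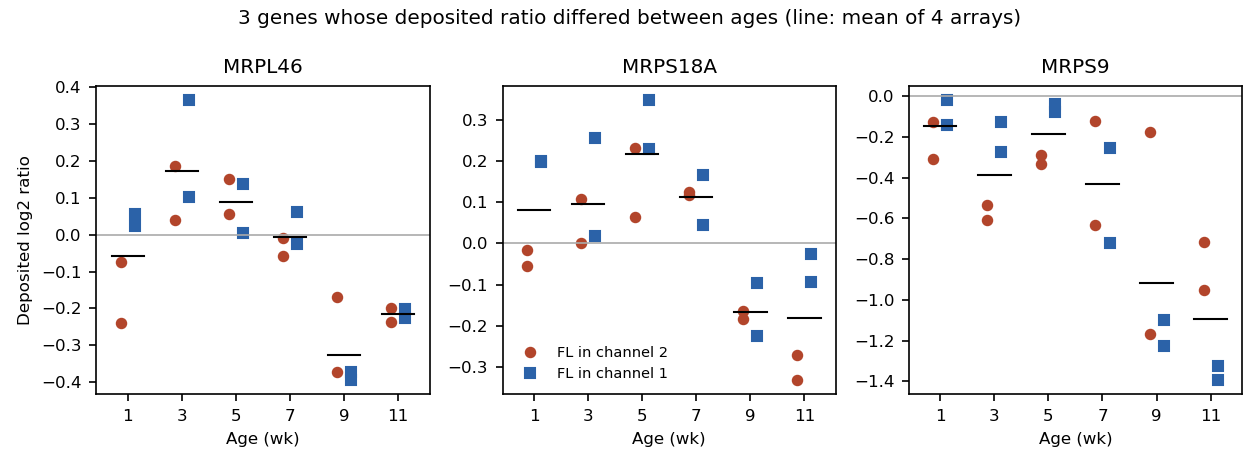
Deposited log2 ratio (y axis) of MRPL46, MRPS18A and MRPS9 at each age in wk (x axis), with 1 point per array, circles for FL in channel 2 and squares for FL in channel 1, and a line at the mean of 4 arrays. In MRPL46 and MRPS18A all arrays at 9 and 11 wk are below 0, and MRPS9 reaches -1.39 at 11 wk.

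Several members were measured by more than 1 spot, which allowed the spots of a gene to be set against each other. The 37 genes lay on 54 spots, 1 of which, for MRPL19, had no value on any array. Over 1 measured spot was found for 11 genes, giving 22 pairs of spots. The median r of a pair over the 24 arrays was 0.19, with 2 pairs over 0.5 and 4 below 0. Over all genes with 2 to 6 spots the median was 0.20 in 5308 pairs, and pairs of different members had a median of 0.18. Spots of 1 gene in the family were thus about as alike as different members were. With each array centred on its median, the median over all 5308 pairs was 0.03. How the spots of a gene differ in sequence is not given in the sources used here.

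In 6 genes the spots disagreed in the sign of the common profile, namely MRPL10, MRPL13, MRPL17, MRPL51, MRPS18A and MRPS26. For MRPL17, a large subunit protein with a bacterial homologue, 2 of the 4 spots carry the same accession. One of them had a common profile of 0.34 ± 0.12 (limma adjusted p = 0.0269) and the other had -0.53 ± 0.15 (adjusted p = 0.0115). They were thus called in opposite directions, and over the 24 arrays they correlated at r = -0.29. The remaining spots of MRPL17 had -0.05 ± 0.02 and 0.02 ± 0.03. The mean of the 4 spots, -0.05 ± 0.04, was not called. For MRPL13 the 2 spots of the same accession had 0.00 ± 0.03 and -0.01 ± 0.07 with r = 0.35, and the third had 0.22 ± 0.05.

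The positive call of MRPS26 came from 1 of its 3 spots, which had 0.50 ± 0.07 (limma adjusted p = 3.56e-05). The others had 0.00 ± 0.03 (adjusted p = 0.923) and -0.13 ± 0.04 (adjusted p = 0.0202). Spots of MRPS26 were thus called in opposite directions. The positive call of MRPS16 likewise came from 1 spot, at 0.20 ± 0.05 (limma adjusted p = 0.00213), and the other spot had 0.01 ± 0.03 (adjusted p = 0.767). MRPS18A, the gene with lower ratios in older birds, had 0.12 ± 0.03 on one spot and -0.07 ± 0.06 on the other. MRPL10, the stalk base protein, had 0.12 and -0.02, and the 3 spots of MRPL51 lay between -0.04 and 0.03. In 5 genes the spots had the same sign, namely MRPL44, MRPS6, MRPS7, MRPS16 and MRPS17. Among these MRPS7 had 0.25 ± 0.03 and 0.14 ± 0.05 with r = 0.19 over the arrays, and the highest r were those of MRPS17 (0.44) and MRPL44 (0.44). Agreement was as low over the arrays as a whole. Over 455 accessions spotted 2 times, the median r was 0.20, 21.1% were below 0, and the mean ratios of the spots had opposite signs for 45.5%. Across these accessions the means of the paired spots correlated at r = -0.03, a value over accessions, which are not independent replicates.

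**Figure D4:**
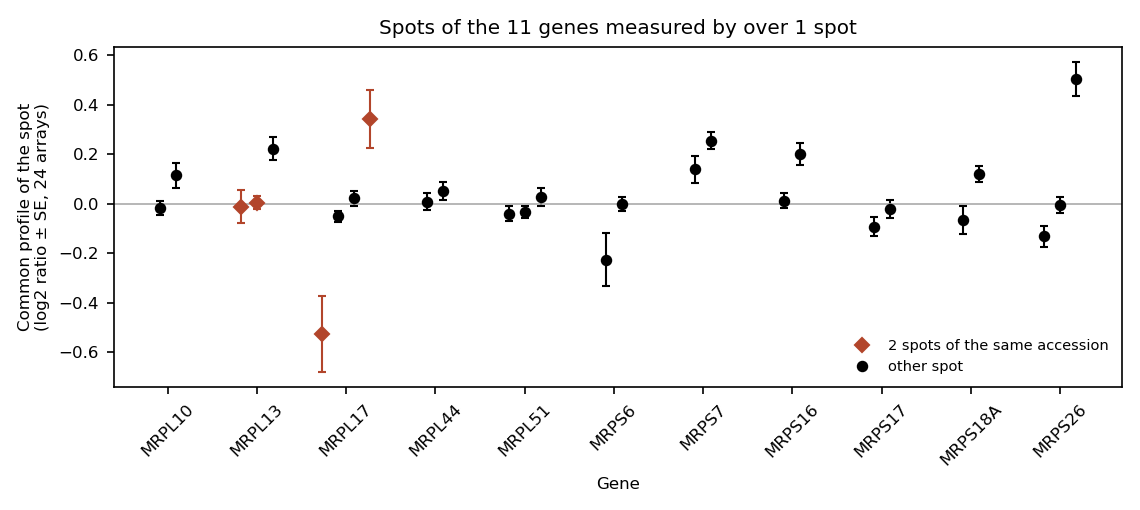
Common profile of each spot (y axis, log2 ratio with its SE over 24 arrays) for the 11 genes measured by over 1 spot (x axis); diamonds mark 2 spots of the same accession. The diamonds of MRPL17 lie at 0.34 and -0.53, and those of MRPL13 both lie near 0.

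Pairs of members were compared over the arrays. With the arrays centred on their median, the median r of the 666 pairs of members was -0.004. It was 0.001 over all genes with a symbol, and 0.23 among the 44 cytosolic ribosomal protein genes measured on the same arrays. On this scale spots that share a symbol had a median r of 0.03 and spots of the same accession 0.02, so that a value near 0 does not show that genes vary apart. Within the large subunit the median was -0.003, within the small subunit -0.03, and between the subunits 0.01. As deposited, the medians were 0.18 for the family, 0.28 for cytosolic ribosomal proteins and 0.21 over all genes, all of which share the shift of 7 wk replicate 1. The most alike pairs as deposited were MRPL10 with MRPS7 (r = 0.83) and MRPL39 with MRPS27 (r = 0.80), and the least alike was MRPL17 with MRPL46 (r = -0.59). These values rest on 24 arrays that share ages and dye orientations, and are a description.

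**Figure D5:**
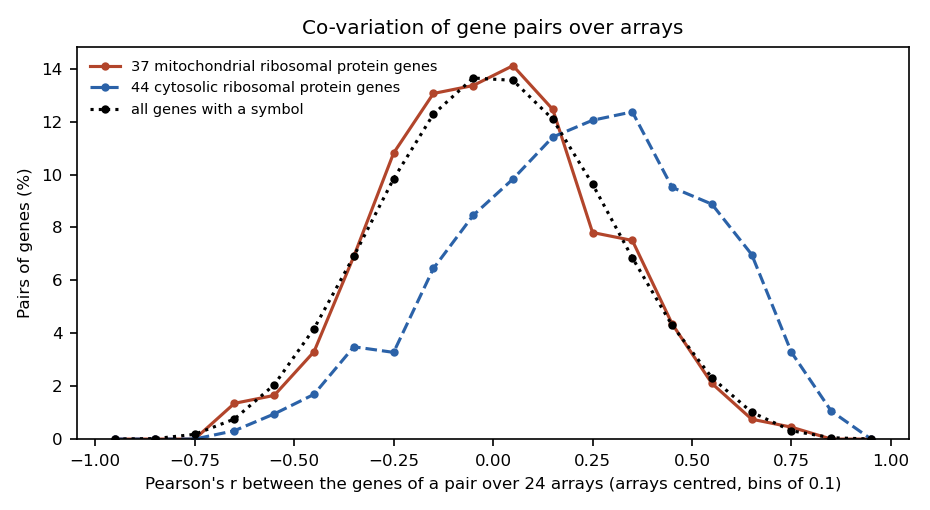
Share of gene pairs (y axis, percent) by Pearson's r between the genes of a pair over 24 arrays (x axis, bins of 0.1, arrays centred on their median) for the 37 mitochondrial ribosomal protein genes, 44 cytosolic ribosomal protein genes and all genes with a symbol. The curve of the family lies on that of all genes, with medians of -0.004 and 0.001, and that of cytosolic ribosomal proteins is shifted to a median of 0.23.

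Other genes of mitochondrial gene expression were read in the common profile, where 24.2% of all features were called positive and 13.5% negative. The 3 measured mitoribosomal proteins that have other names were all called positive, namely CHCHD1 at 0.26 ± 0.06, the GTP-binding protein DAP3 at 0.23 ± 0.05 and the pentatricopeptide repeat protein PTCD3 at 0.14 ± 0.04 (limma adjusted p = 0.00283, 0.000894 and 0.0153), and all of them belong to the small subunit. Of 11 genes of mitoribosome assembly and RNA modification, 3 were called positive and 1 negative, or 36.4%, near the 37.6% of all features. SLIRP, which stabilizes mitochondrial messenger RNA, had 0.41 ± 0.06, C1QBP had 0.17 ± 0.03, the pseudouridine synthase TRUB2 had 0.12 ± 0.03, and FASTKD2, which binds mitochondrial RNA, had -0.09 ± 0.03.

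Of 15 mitochondrial translation factors and RNA processing genes, 3 were called in each direction, or 40%, near the 37.6% of all features. TRMT10C and HSD17B10, which are both subunits of mitochondrial ribonuclease P, went opposite ways, with 0.12 ± 0.03 for TRMT10C and -0.15 ± 0.03 for HSD17B10. RMND1 had 0.12 ± 0.04 and QRSL1, an amidotransferase subunit, had 0.09 ± 0.03. C12orf65, of the release factor family, had -0.15 ± 0.04 and the tRNA-modifying enzyme TRMU had -0.08 ± 0.03.

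Among 6 mitochondrial aminoacyl-tRNA synthetases, 3 were called positive, with NARS2 at 0.21 ± 0.05, PARS2 at 0.11 ± 0.03 and RARS2 at 0.08 ± 0.03, and CARS2 was called negative at -0.17 ± 0.04, which makes 66.7% of a list of 6 against 37.6% of all features. Among 13 genes of mitochondrial transcription and replication 3 were called, all positive, or 23.1%, near the 24.2% of all features called positive. They were the nuclease ENDOG at 0.22 ± 0.05, the coactivator PPARGC1A at 0.15 ± 0.05 and the transcription factor GABPA at 0.13 ± 0.03.

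The 40 nuclear genes of the respiratory chain and ATP synthase had 5 positive and 9 negative calls, together 35%, near the 37.6% of all features, and a median of -0.04. The iron-sulfur protein of complex III, UQCRFS1, had -0.55 ± 0.04, and the ATP synthase subunits ATP5C1 and ATP5B had -0.37 ± 0.07 and -0.36 ± 0.11. COX7C of complex IV had 0.39 ± 0.09, NDUFS7 of complex I had 0.18 ± 0.03 and ATP5PB of ATP synthase had 0.13 ± 0.04. Cytosolic ribosomal proteins, in turn, had 5 positive and 22 negative calls among 44 genes and a median of -0.12. Negative calls made up 50% of them, against 13.5% of all features, and positive calls 11.4%, against 24.2%. RPS23 at -0.61 ± 0.09, RPL13 at -0.57 ± 0.07 and RPS15A at -0.55 ± 0.07 were lowest, and RPL30 at 0.36 ± 0.05, RPL32 at 0.21 ± 0.07 and RPL35A at 0.19 ± 0.06 were highest. The median of the mitochondrial family, 0.03, thus lay near that of all features, whereas the median of the cytosolic family lay below it. The difference between the 2 families was not tested.

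Marker lists of cell types in liver, of 4 to 9 genes each, held called genes in the common profile as well, read against 24.2% positive and 13.5% negative calls over all features. Of 9 plasma proteins made by hepatocytes, 3 were called negative, or 33.3%, and 0 positive. Of 8 stromal and matrix genes 5 were called positive, or 62.5%, and 0 negative, and of 5 erythrocyte genes 3 were called positive, or 60%, and 0 negative. Immune cell markers had 1 positive and 2 negative calls among 6, and markers of proliferating cells had 1 positive call among 4, or 25%. In liver tissue a change in the number of cells of a type and a change in RNA per cell cannot be told apart, and the part of these genes in the common profile of the mitoribosomal family was not tested.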

How the data were processed

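Liver RNA of FL and LL chickens was measured on 24 two-colour cDNA arrays with 19200 spots each. The deposited table holds 1 log ratio per spot and array, already processed by the authors. Deposited values were taken as log2, an assumption, since a natural logarithm cannot be told apart. The log base, direction, scanner, background correction and normalization method are not given in the sources used here. Between 18795 and 18970 spots per array had a value. Spot intensities were not analysed here, so precision is limited by the number of arrays.

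Probes of 1 symbol were averaged. A feature was tested if, at every age, 3 or more of the 4 arrays gave it a value (14855, with 172 left out). They were fitted in limma (version 3.58.1, R 4.3.3), with 1 coefficient per age, multiplied by +1 or -1 for dye orientation, and 1 common term. A second model used unturned ages and a dye term. P-values, all two-sided, were adjusted by Benjamini-Hochberg over all features tested and called under 0.05. No gene was given sequence or coordinates, and RefSeq served for names and neighbours only. Cytosolic, mitochondrial and marker lists were written by hand.

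The members and lists were chosen with earlier results of these data known. Values were given for called members (up to 8 in each direction in the common profile), otherwise for the 2 or 3 with the smallest p, for genes whose spots disagreed in sign, for the extremes of each subunit, and for up to 3 called genes per list and direction. Spots of members other than those with opposite signs, and the counts of array pairs, were described after their values were seen. Alternatives were the direction of the columns, centring, scaling, weights, filters, spots tested singly, ages fitted alone, a replicate block and arrays left out.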

Additional observations from a re-analysis of the deposited data

Results flagged for a closer look

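In 36 groups of 4 arrays, 4 had an array far from the other 3. Apart from the means of the 37 genes at each age, the groups were of genes picked here by small p-values. No chance rate can therefore be set against this count. On 7 wk replicate 1 the mean of the 37 genes was 0.324 as deposited, and on the other 7 wk arrays it was -0.017 to 0.024. All features were shifted on this array by about as much. For MRPL46 at 9 wk, replicate 4 had a deposited ratio of -0.168 and the others had -0.394 to -0.372. For MRPS9 at 9 wk, replicate 2 had -0.178 and the others had -1.229 to -1.099. For MRPS31 at 3 wk, replicate 3 had a turned ratio of -0.507 and the others had -0.127 to -0.054.

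Deposited ratios differed between ages in MRPL46, MRPS18A and MRPS9 (limma F test, adjusted p = 0.00321, 0.00591 and 0.0148). In MRPL33 all 4 turned values were positive at 9 wk and negative at 1, 5 and 11 wk. Its 9 wk value was higher by 0.156 than at 1 wk, by 0.216 than at 5 wk and by 0.236 than at 11 wk. The F test over all ages did not pass (limma adjusted p = 1).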

How the results depend on the processing

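With columns taken as already turned, members were called in the mean over ages (19), at 3 wk (2), 7 wk (11), 9 wk (9), 11 wk (6) and in the difference between ages (3), where turned columns gave 0. For the members that mean over ages is the same fitted value as the common profile. With array weights 10 members were negative in the common profile, against 6. The median common profile then went from 0.03 to 0.01 in the family and from 0.02 to 0.01 over all features. When each age was fitted on its own 4 arrays, 1 member was called at 5 wk, MRPS15 at -0.39 (limma adjusted p = 0.0239). Leaving out 1 array at a time gave 0 to 2 calls at 7 wk, with 2 only without 7 wk replicate 3. It gave 0 calls in the mean, at the other ages and in the turned difference between ages, 11 to 13 positive and 5 to 8 negative calls in the common profile, and 3 to 4 calls between ages as deposited. No other alternative moved a count of calls by over 1.5 times. Apart from columns taken as already turned, the alternatives in this section are given without the share of all features called. Their counts describe the processing and are no result about the family.

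MRPL15 lost its negative call without 1 wk replicate 1 or 2, any 3 wk array, 5 wk replicate 2 or 3, 7 wk replicate 2, 3 or 4, 9 wk replicate 1, 2 or 4, 11 wk replicate 1 or 4, and without both 7 wk replicate 1 and 11 wk replicate 4. MRPS9 lost its call between ages with a robust, trended moderation (adjusted p = 0.0573). In the common profile, of 770 values of 22 named members under 35 alternatives, 747 kept their direction and side of the threshold, 6 gained a call and 17, all of MRPL15, lost it. Of turned single ages, MRPL3 and MRPL13 gained calls at 7 wk without 7 wk replicate 3. The causes were not tested. Leaving out both 1 wk replicates 3 and 4, whose deposited columns resemble each other (r = 0.56 over all features), an alternative added after the data were seen, gave 11 positive and 7 negative calls.

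Whether replicate numbers pair the samples could not be decided. Arrays of the same number correlated at a median of 0.39 in turned and -0.04 in deposited deviations. Arrays of other numbers had medians of -0.31 and 0.01. Number goes with dye orientation, so these values cannot tell pairing from orientation. A fixed replicate block cannot be told from orientation. With the number as a random replicate block (correlation -0.06), 12 members were positive and 7 negative in the common profile, 3 were called between ages as deposited, and 0 in every turned comparison.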
